A study of Danio rerio with 12 samples.

Results

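The 54 collagen genes of the zebrafish skeletal muscle table were described here, out of 25281 genes in all. A gene was a member when its symbol read col, a type number, the letter a and a chain number, a rule that uses symbols alone. The members belonged to 21 collagen types. They comprised 15 genes of fibrillar types, 6 genes of the basement membrane type IV and 33 genes of other types. The other types were 12 fibril-associated (FACIT) genes, 9 genes of types VI and XXVIII, 5 short chain genes of types VIII and X, 3 multiplexin genes of types XV and XVIII, 2 transmembrane genes of type XVII and 2 anchoring fibril genes of type VII.

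Collagens are secreted proteins of the extracellular matrix in which chains wind into a triple helix. Fibrillar collagens assemble into the rope-like fibrils that give tendon, dermis, bone and the connective tissue of muscle their tensile strength, and FACIT collagens sit on the surface of these fibrils. Type IV collagen forms the sheet-like network of basement membranes, which surround each muscle fibre and each blood vessel, and type VI collagen forms beaded filaments that link the basement membrane of muscle fibres to the matrix around them. In adult tissue collagen proteins turn over slowly, and their transcripts come mainly from connective tissue cells, bone-forming cells, vessel cells and basal skin cells, not from the muscle fibre itself.

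Tail muscle, from behind the anus up to the caudal fin, came from wild-type fish aged 2 to 3 months by the labels (the study's methods describe older fish), 4 separate fish per group, after fasting for 24 h (Fast), at 3 h of refeeding (Refed_3h) and at 8 h of refeeding (Refed_8h). By the study's methods each group held 2 female and 2 male fish, but the sex of each single fish was not known here. All 3 groups had been fasted, no group of fish fed throughout was analysed here, and time since feeding and time of day cannot be told apart. The samples were pieces of tissue, so fewer cells of a type and less RNA per cell cannot be told apart either.

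Counts assigned to genes summed to 11929140 to 18446239 per library, and collagens took 0.529% to 1.89% of them. The muscle label was checked with 17 fibre genes, whose summed level was 94312 to 144406 TPM (transcripts per 1000000, a level relative to transcript length and library total) over the 12 fish. Markers of skin epithelium (23 of 23 listed genes found), of bone and scale cells (14 of 15) and of endothelium (10 of 10) were present in every library, and none of these markers was at 0 in all fish. The Refed_3h against Fast comparison was also simulated (16462 genes). In it, 29 of 97 genes changed by 2-fold and 81 of 99 genes changed by 4-fold were called. The changed genes were drawn at random from all tested genes. Collagens varied more between fish of a group, with a median standard deviation (log2 counts per 1000000) of 0.51 against 0.35 for all tested genes. No other tested genes were changed in the simulation, while 4.9% of all tested genes were called in this comparison of the data. The threshold for a call depends on the share of changed genes. The recovery is thus that of randomly drawn genes where few genes change, and it may differ in the data. That of collagens was not simulated.

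The first question was whether collagen transcripts changed at 3 h of refeeding. Of the 48 collagens with enough counts for the test, 1 rose and none fell in Refed_3h against Fast, at an adjusted p under 0.05 (edgeR quasi-likelihood test, Benjamini-Hochberg over 16745 genes). The background was 2.28% of all tested genes called higher and 2.63% called lower, 4.9% in either direction. The gene that rose was col18a1b, a chain of type XVIII, the basement membrane collagen whose end fragment is endostatin. The median log2 fold change of the 48 collagens was 0.07, against -0.01 for all tested genes, and 28 of the 48 were above 0 (background 49.3%). On the TPM scale 15 of 45 collagens were above 0. Their median there was -0.19, beside -0.26 for all genes. Less than 2-fold was the change of 47 of the 48 (15451 of 16745 over all genes), and none was both called and changed by 2-fold or more (background 2.07%). At an unadjusted p under 0.05 there were 7 collagens, 14.6% of those tested, beside 22.9% of all genes. The groups did not overlap in 3 collagens, all higher in Refed_3h, namely col18a1b, col6a2 and col2a1b (background 6.98%, and 7.02% for lower).

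At 8 h of refeeding no collagen was called against Fast. The background was 1.4% of genes called in either direction, 0.543% higher and 0.854% lower. DESeq2 also called none, and 5 of the 48 collagens had an unadjusted p under 0.05 (10.4%, beside 13% of all genes). The 48 collagens had a median log2 fold change of 0.03, against 0.00 for all genes, and 28 of 48 were above 0 (background 50.4%). Of the 48, 44 changed by less than 2-fold, beside 15909 of 16745 over all genes. No collagen was both called and changed by 2-fold or more (background 0.985%). The groups did not overlap in 3 collagens (background 7.44%): col18a1b and col8a1b were higher in Refed_8h (background 3.61%) and col5a3b was lower (background 3.83%).

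Between Refed_8h and Refed_3h no collagen was called, by edgeR or by DESeq2. Of the 3 comparisons it had the largest background, with 6.41% of genes called, 3.06% higher and 3.36% lower, and 2.78% also changed by 2-fold or more. The unadjusted p was under 0.05 in 3 of 48 collagens (6.25%, beside 22.4% of all genes), the groups overlapped in all 48 (background of no overlap 7.03% higher and 7.94% lower), 25 of 48 were above 0 (background 51.1%), and the median log2 fold change was 0.02, against 0.01 for all genes.

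**Figure D1:**
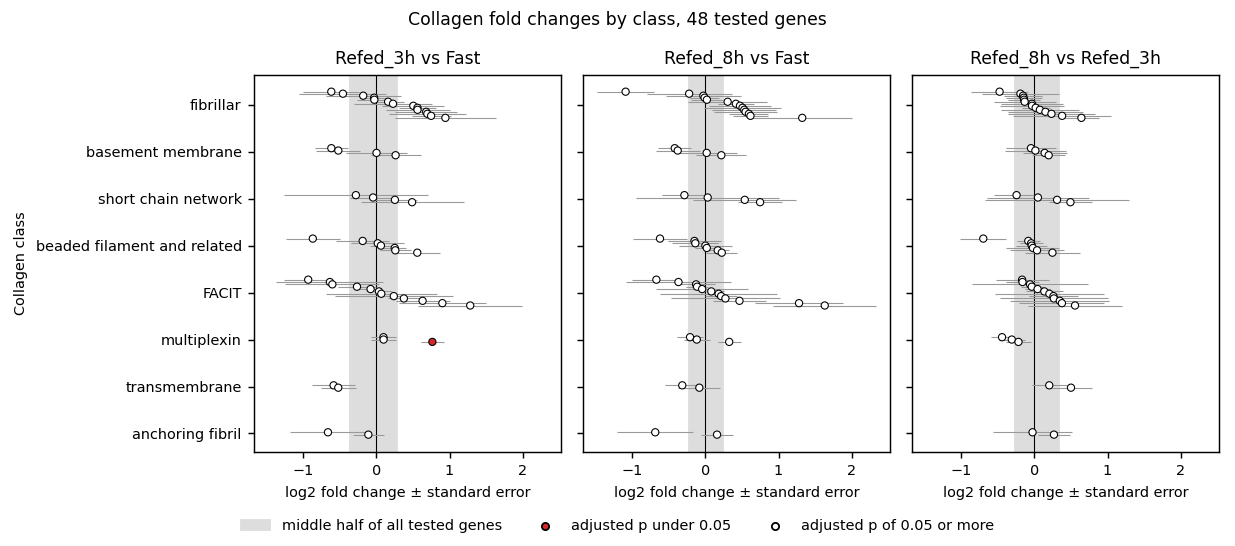
Fold changes of the 48 tested collagens by class in the 3 comparisons. Each dot is 1 gene with its log2 fold change (x axis, log2 scale, trimmed mean scaling) and standard error, and the grey band spans the quartiles of all tested genes. The only filled dot is col18a1b in Refed_3h against Fast, at 0.77.

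The level of col18a1b was 18.4, 11.5, 13.9 and 14.1 TPM in the Fast fish, 22.7, 14.8, 23.4 and 15.6 in the Refed_3h fish and 17.7, 14.2, 17.2 and 17.9 in the Refed_8h fish. On the TPM scale the Refed_3h and Fast fish overlapped. Counts per 1000000 after scaling by the trimmed mean of M-values (CPM), the scale of the test, gave 31.6, 25.7, 27.8 and 29.2 in the Fast fish, 57.96, 34.05, 55.9 and 46.5 in the Refed_3h fish and 33.4, 34.6, 39.6 and 35.8 in the Refed_8h fish. On that scale the Refed_3h and Fast fish did not overlap. The 4 Refed_8h fish lay above all Fast fish and below 3 of the 4 Refed_3h fish. For col18a1b the log2 fold change was 0.77 ± 0.16 (SE, adjusted p = 0.0185) in Refed_3h against Fast, 0.33 ± 0.16 (SE, adjusted p = 0.409) in Refed_8h against Fast and -0.44 ± 0.16 (SE, adjusted p = 0.116) in Refed_8h against Refed_3h. On the log2(TPM + 1) scale of limma, where the median of all genes stood at -0.26 in this comparison, the difference between Refed_3h and Fast was 0.37 and did not pass (adjusted p = 0.202). It also did not pass without replicate 1 (adjusted p = 0.0642) or replicate 3 (adjusted p = 0.0538) of Refed_3h.

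For its paralog col18a1a no change was called, and whether the paralogs differed in their change was not tested. The level of col18a1a was 11.65, 13.8, 14.1 and 9.08 TPM in Refed_3h and 19.4, 14.2, 12.9 and 11.2 TPM in Fast, with a log2 fold change of 0.10 ± 0.18 (SE, adjusted p = 0.774). The ratio of col18a1b to col18a1a in TPM was 1.02 ± 0.19 in Fast, 1.60 ± 0.37 in Refed_3h and 1.43 ± 0.41 in Refed_8h (SD, n = 4 each). The groups overlapped, with 0.810 to 1.26 in the Fast fish and 1.07 to 1.95 in the Refed_3h fish. The Refed_8h fish had 1.07, 1.09, 1.79 and 1.80, none of them near their mean. This ratio was not tested. The related col15a1b, a multiplexin of the muscle basement membrane, had a log2 fold change of 0.10 ± 0.18 (SE) in Refed_3h against Fast, and in Refed_8h against Fast it was the lowest of the 3 multiplexins (-0.21). Between Refed_8h and Refed_3h the highest multiplexin was col18a1a (-0.22) and the lowest col18a1b (-0.44).

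The fibrillar class held most of the collagen transcripts. Its 15 genes added up to 1878 ± 804 TPM in the Fast fish, 2133 ± 229 in the Refed_3h fish and 2333 ± 1355 in the Refed_8h fish (SD, n = 4 each). All 54 collagens added up to 2872 ± 1330 TPM in the Fast fish, 2897 ± 359 in the Refed_3h fish and 3299.5 ± 1904 in the Refed_8h fish. The spread within Fast and within Refed_8h was larger than the difference between any pair of group means.

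By fish, all collagens together added up to 4405, 3540.0, 1567 and 1974 TPM in the Fast fish, 3096, 3297, 2543 and 2650.2 in the Refed_3h fish and 3627, 5832, 2237 and 1503 in the Refed_8h fish. The highest and the lowest fish were both Refed_8h fish, 3.88-fold apart, and the 3 groups overlapped. The 33 genes of other types added up to 967 ± 523 TPM in the Fast fish, 745 ± 150.2 in the Refed_3h fish and 943 ± 559 in the Refed_8h fish (SD, n = 4 each). Within them the short chain genes ranged most, between 98.6 and 1294 TPM over the 12 fish, and the genes of types VI and XXVIII least by ratio, between 161.7 and 252 TPM. The sums are given as a description and were not tested.

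Type I collagen is the main fibrillar collagen of bone, scale, dermis and tendon, and in zebrafish it is built from the chains of col1a1a, col1a1b and col1a2. These 3 genes made up 56.9% to 68.8% of the collagen TPM of a fish (median 64.3%). The level of col1a1a was 909, 756, 319.7 and 461 TPM in the Fast fish, 808, 859, 687 and 696 in the Refed_3h fish and 855, 1454, 543 and 340.1 in the Refed_8h fish. The level of col1a1b was 886, 719.5, 333 and 419 TPM in the Fast fish, 719, 703, 603 and 577 in the Refed_3h fish and 745, 1334, 523 and 304 in the Refed_8h fish. The level of col1a2 was 712, 594, 242 and 345 TPM in the Fast fish, 602, 609, 453 and 507 in the Refed_3h fish and 681, 1099, 411 and 253 in the Refed_8h fish. Refed_8h replicate 2 was the highest of the 12 fish for all 3 chains, and Fast replicate 3 and Refed_8h replicate 4 were the lowest. In TPM the 4 Refed_3h fish lay close together, within the ranges of Fast and Refed_8h. On the CPM scale of the test, 3 of the 4 Refed_3h fish lay above all Fast fish for each of the 3 chains, and the groups overlapped: for col1a1a, Refed_3h ran between 2669 and 3363 CPM and Fast between 1034 and 2743 CPM. In TPM, replicates 1 and 2 were above replicates 3 and 4 in each group for the sum of all collagens, for the 3 chains and for the summed bone and scale markers, while in CPM this held in Fast and Refed_8h and not in Refed_3h. For col1a1a the log2 fold change was 0.68 ± 0.43 (SE, adjusted p = 0.363) in Refed_3h against Fast, 0.55 ± 0.43 (SE, adjusted p = 0.633) in Refed_8h against Fast and -0.13 ± 0.42 (SE, adjusted p = 0.897) in Refed_8h against Refed_3h. For col1a1b the log2 fold changes were 0.51 ± 0.42, 0.47 ± 0.42 and -0.03 ± 0.42 (SE), and for col1a2 they were 0.56 ± 0.44, 0.53 ± 0.44 and -0.03 ± 0.44 (SE), in the same order of comparisons, none past the test.

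The chains of type I kept a narrow ratio while their level moved. The sum of col1a1a and col1a1b over col1a2 was 2.35 to 2.85 in TPM over the 12 fish (median 2.54), although the level of the 3 chains together ran between 895 and 3887 TPM. As col1a1a and col1a1b are paralogs and the reads were 36 bases long, how reads matching both were counted bears on their split, and no source used here gives that setting.

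**Figure D2:**
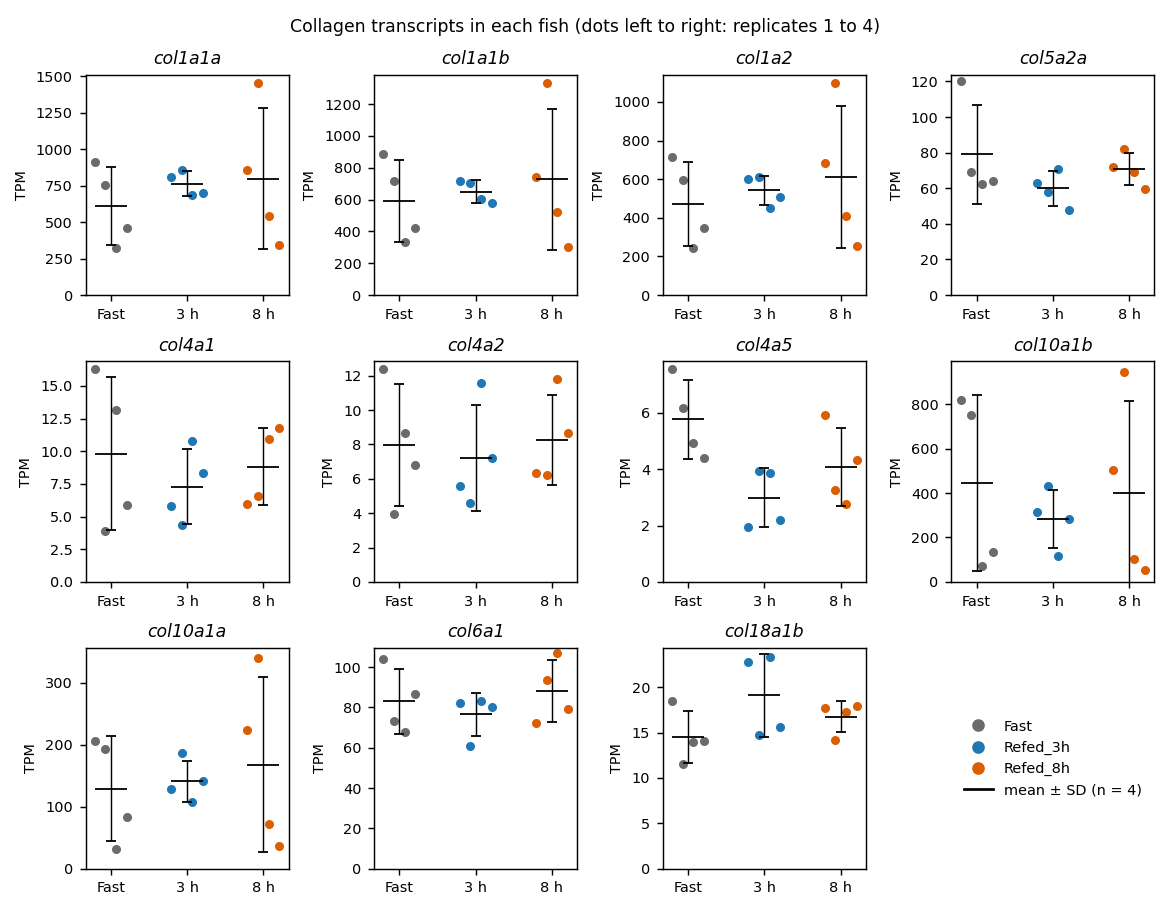
Level of 11 collagens in each fish, in TPM (y axis, linear from 0), for Fast, Refed_3h and Refed_8h (x axis). Dots are fish, replicates 1 to 4 from left to right, with the mean and SD as black lines (the lower SD line is cut at 0 where it would pass below it). The type I and type X genes spread widely within Fast and Refed_8h, for example col10a1b at 53.9 to 945 TPM in Refed_8h, while col6a1 stayed between 60.9 and 107 TPM in all 12 fish.

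Type V collagen sits inside type I fibrils and sets their diameter. The level of col5a2a was 120.2, 69.3, 62.3 and 64.2 TPM in the Fast fish, 63.1, 57.9, 70.9 and 47.6 in the Refed_3h fish and 72.1, 82.05, 68.99 and 59.8 in the Refed_8h fish. Fast replicate 1 stood above the other 11 fish, and the groups overlapped. For col5a2a the log2 fold change was -0.03 ± 0.19 (SE, adjusted p = 0.944) in Refed_3h against Fast, -0.01 ± 0.19 (SE, adjusted p = 0.99) in Refed_8h against Fast and 0.02 ± 0.19 (SE, adjusted p = 0.97) in Refed_8h against Refed_3h. Its partner chain col5a1 averaged 52.1 TPM over the 12 fish, at 0.616 to 0.866 of the level of col5a2a.

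Among the 14 fibrillar genes tested, 9 had a log2 fold change above 0 in Refed_3h against Fast, 10 in Refed_8h against Fast and 6 in Refed_8h against Refed_3h, and none passed the test. The highest in both comparisons with Fast was col2a1a, of the cartilage type II, at 0.94 (adjusted p = 0.437) and 1.32 (adjusted p = 0.454), and the lowest was col5a3b, at -0.61 (adjusted p = 0.361) and -1.09 (adjusted p = 0.232). Between Refed_8h and Refed_3h the highest was col5a3a (0.64, adjusted p = 0.127) and the lowest col5a3b (-0.47, adjusted p = 0.518). The smallest adjusted p of the class in Refed_3h against Fast was 0.114, for col11a1b, a chain of type XI, which joins type II in cartilage fibrils. The fibrillar gene without a test was col24a1, with 63 counts over all 12 libraries.

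Type IV genes were far below type I in level. The 6 genes added up to 26.3 ± 10.8 TPM in the Fast fish, 18.997 ± 6.82 in the Refed_3h fish and 23.1 ± 4.63 in the Refed_8h fish (SD, n = 4 each), or 0.302% to 1.85% of the collagen TPM of a fish. The chains of col4a1 and col4a2 form the network found in nearly all basement membranes, and those of col4a5 and col4a6 are known from skin and smooth muscle. The level of col4a1 was 16.3, 3.897, 13.2 and 5.91 TPM in the Fast fish, 5.79, 4.33, 10.8 and 8.31 in the Refed_3h fish and 5.97, 6.599, 10.9 and 11.8 in the Refed_8h fish. The level of col4a2 was 12.4, 3.92, 8.68 and 6.79 TPM in the Fast fish, 5.55, 4.56, 11.6 and 7.21 in the Refed_3h fish and 6.34, 6.25, 11.8 and 8.65 in the Refed_8h fish. High and low fish occurred in each group, and the ratio of col4a1 to col4a2 was 0.870 to 1.52. For col4a1 the log2 fold change was 0.00 ± 0.41 (SE, adjusted p = 0.997) in Refed_3h against Fast and 0.02 ± 0.41 (SE, adjusted p = 0.99) in Refed_8h against Fast. For col4a2 they were 0.26 ± 0.34 and 0.22 ± 0.34 (SE).

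The level of col4a5 was 7.55, 6.19, 4.93 and 4.41 TPM in the Fast fish, 1.96, 3.94, 3.87 and 2.197 in the Refed_3h fish and 5.94, 3.28, 2.77 and 4.34 in the Refed_8h fish. All 4 Refed_3h fish were below all 4 Fast fish on the TPM scale, while on the CPM scale of the test the groups overlapped. The share of all genes without overlap was counted in CPM only, so the TPM separation has no background. For col4a5 the log2 fold change was -0.61 ± 0.23 (SE, adjusted p = 0.127) in Refed_3h against Fast, -0.42 ± 0.22 (SE, adjusted p = 0.468) in Refed_8h against Fast and 0.20 ± 0.23 (SE, adjusted p = 0.664) in Refed_8h against Refed_3h. The neighbouring col4a6, which starts 753 bases from col4a5 on chromosome 7 and runs the other way, had log2 fold changes of -0.52 ± 0.30, -0.38 ± 0.30 and 0.14 ± 0.30 (SE). Neither passed in any comparison. The kidney chains were hardly detected: col4a3 had 9 counts and col4a4 had 30 counts over all 12 libraries, and both were left out of the test.

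Among the other types the short chain type X stood out by level. In mammals type X collagen marks hypertrophic cartilage, and in bony fish it is also made by bone-forming cells. The level of col10a1b was 821, 753, 73.4 and 137 TPM in the Fast fish, 313, 430.4, 115 and 282 in the Refed_3h fish and 506, 945, 102 and 53.9 in the Refed_8h fish. The level of col10a1a was 207, 194, 31.8 and 84.1 TPM in the Fast fish, 129, 187, 108 and 141 in the Refed_3h fish and 224, 340.0, 71.8 and 36.3 in the Refed_8h fish. Fish at both ends of the range were found in Fast and in Refed_8h. For col10a1b the log2 fold change was -0.28 ± 0.98 (SE, adjusted p = 0.892) in Refed_3h against Fast and 0.03 ± 0.98 (SE, adjusted p = 0.992) in Refed_8h against Fast. The standard error of 0.98 means that even a 2-fold change of col10a1b could not be told from the spread between fish. For col10a1a they were 0.49 ± 0.70 and 0.54 ± 0.70 (SE). Both genes together made up 6.00% to 26.7% of the collagen TPM of a fish.

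Of the type VIII genes, which belong to the vessel wall and the cornea, col8a1b was the highest of its class in Refed_8h against Fast (log2 fold change 0.75 ± 0.30 (SE), adjusted p = 0.29) and in Refed_8h against Refed_3h (0.49, adjusted p = 0.355). Its level was 4.82, 6.47, 5.74 and 5.88 TPM in Refed_8h and 3.54, 3.14, 4.21 and 3.94 TPM in Fast, without overlap. The lowest of the class were col10a1b in Refed_3h against Fast (-0.28) and col8a2 in both comparisons of Refed_8h (-0.28 against Fast and -0.24 against Refed_3h). The remaining gene, col8a1a, had 3 counts in all.

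The 3 abundant genes of type VI, col6a1, col6a2 and col6a3_1, had a standard deviation of log2 CPM within groups of 0.32, 0.21 and 0.20, below the 0.48 of col6a3_2 and the 0.60 of col6a4a. The level of col6a1 was 104, 73.5, 68.01 and 86.4 TPM in the Fast fish, 82.3, 60.9, 83.3 and 79.9 in the Refed_3h fish and 72.4, 93.6, 107 and 79.1 in the Refed_8h fish. Refed_3h replicate 2 was the lowest fish and Refed_8h replicate 3 the highest. For col6a1 the log2 fold change was 0.26 ± 0.21 (SE, adjusted p = 0.487) in Refed_3h against Fast and 0.23 ± 0.21 (SE, adjusted p = 0.708) in Refed_8h against Fast. Its partner chains col6a2 and col6a3_1 averaged 59.98 and 40.4 TPM over the 12 fish, and col6a2 had a log2 fold change of 0.25 ± 0.16 (SE, adjusted p = 0.367) in Refed_3h against Fast. A second entry with the col6a3 symbol, col6a3_2, overlaps col6a3_1 by 6550 bases on the same strand of chromosome 9, so reads could be split between them. It had the lowest value of the class in both comparisons with Fast (-0.87, adjusted p = 0.185, and -0.62, adjusted p = 0.518). The highest were col28a1b in Refed_3h against Fast (0.56, adjusted p = 0.309) and col6a1 in Refed_8h against Fast (0.23, adjusted p = 0.708). In Refed_8h against Refed_3h the order turned, with col28a1b the lowest (-0.70, adjusted p = 0.211) and col6a3_2 the highest (0.25, adjusted p = 0.754).

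None of the 12 FACIT genes passed in any comparison. The highest in both comparisons with Fast was col9a1b (1.28 ± 0.71 (SE), adjusted p = 0.303, and 1.63 ± 0.71 (SE), adjusted p = 0.346), a chain of type IX, which coats cartilage fibrils, and the lowest was col12a1b (-0.93, adjusted p = 0.12, and -0.67, adjusted p = 0.42), a chain of type XII, found in tendon and fascia. The gene col9a1b had only 14 to 185 counts per library, and its Refed_8h fish spread widely (4.71, 12.9, 4.37 and 0.960 CPM). Of the other type IX genes, col9a2 had 0.90 and 1.28, col9a1a 0.24 and 0.18, and col9a3 -0.60 and -0.04. Between Refed_8h and Refed_3h the highest was col9a3 (0.56, adjusted p = 0.666) and the lowest col19a1_2 (-0.17, adjusted p = 0.84). The most abundant FACIT gene, col12a1a, averaged 34.3 TPM and had log2 fold changes of -0.08 ± 0.15 and -0.11 ± 0.15 (SE) against Fast.

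The type XVII and type VII genes belong to the junction of epidermis and dermis. Type XVII collagen spans the membrane of basal skin cells, and type VII forms the fibrils that anchor their basement membrane. In Refed_3h against Fast the log2 fold changes were -0.58 ± 0.29 (SE, adjusted p = 0.253) for col17a1a and -0.52 ± 0.24 (SE, adjusted p = 0.215) for col17a1b, -0.11 for col7a1 and -0.66 for col7a1l, none past the test. In Refed_8h against Fast they were -0.08, -0.31, 0.16 and -0.68, and in Refed_8h against Refed_3h 0.50, 0.20, 0.27 and -0.02. The level of col17a1b was 19.4, 35.4, 20.2 and 13.5 TPM in Refed_3h and 53.1, 34.8, 36.8 and 35.1 TPM in Fast, and the groups overlapped. The 23 skin markers ran between 23051 and 27946 TPM in sum in the Fast fish, 14712 and 24687 in the Refed_3h fish and 14210 and 26562 in the Refed_8h fish. Of the 23, only tp63, a regulator of basal skin cells, passed in Refed_3h against Fast (lower, log2 fold change -0.77, adjusted p = 0.0325, background 2.63% lower). The median log2 fold change of the 23 was -0.38 in Refed_3h against Fast and -0.59 in Refed_8h against Fast. The difference in summed skin markers did not pass an exact permutation test between Refed_3h and Fast (two-sided p = 0.0571, adjusted p = 0.343 over 36 tests). Between Refed_8h and Fast the p and adjusted p of that test were the same. With 4 fish per group the smallest p of this test is 0.0286. The pigment cell markers reached it between Refed_3h and Fast, and their adjusted p in this test was also 0.343. The failure to pass therefore does not tell whether skin markers differed. The skin markers also entered the model as a score. The log2 fold changes in Refed_3h against Fast were then -0.50 for col17a1a (adjusted p = 0.367) and -0.40 for col17a1b (adjusted p = 0.271). In Refed_8h against Fast they were 0.07 (adjusted p = 0.953) and -0.01 (adjusted p = 0.993), in place of -0.08 and -0.31. In Refed_8h against Refed_3h they were 0.57 (adjusted p = 0.27) and 0.39 (adjusted p = 0.275), in place of 0.50 and 0.20. For col7a1 and col7a1l the fit with the score gave -0.09 and -0.81 in Refed_3h against Fast, in place of -0.11 and -0.66. In Refed_8h against Fast they had 0.20 and -0.94, in place of 0.16 and -0.68. Between Refed_8h and Refed_3h they had 0.29 and -0.13, in place of 0.27 and -0.02. None of these passed. Against Fast, the moves of col7a1l with the score were smaller than its standard errors, which were 0.52 to 0.61. It had only 9 to 50 counts per library. The values of col7a1 hardly moved.

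**Figure D3:**
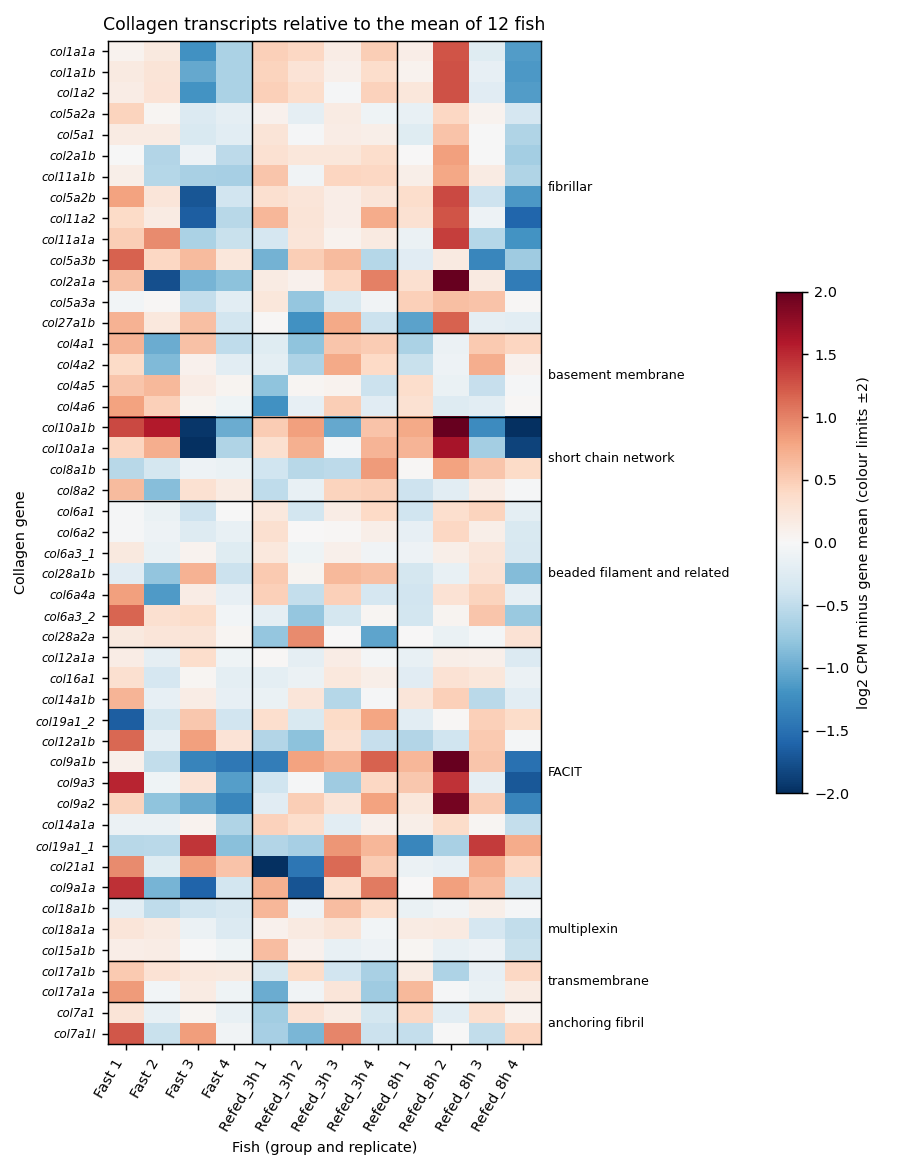
Level of the 48 tested collagens in each fish relative to the mean of the gene over 12 fish, as a difference of log2 CPM (colour, limits of 2 either way), with genes grouped by class (rows) and fish by group (columns). Fast replicate 3 and Refed_8h replicate 4 were low and Refed_8h replicate 2 was high in most type I, type X and type XI genes.

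Fish of the same group differed more in collagens than in most genes of the table. The standard deviation of log2 CPM within groups had a median of 0.51 over the 48 collagens, against 0.35 over all 16745 tested genes. Among genes with a mean log2 CPM of at least 5, it was 0.38 for the 20 collagens and 0.25 for all 2615 genes. The values are a description, since genes of 1 fish are not independent. The highest spread was that of col10a1b, at 1.60, which 98.7% of tested genes did not reach, and the type I chains stood at 0.68 to 0.71. The lowest was that of col12a1a, at 0.19, followed by col6a3_1 at 0.20 and col6a2 at 0.21. The share of variance lying between the groups had a median of 16.8% over the collagens, against 28.5% over all genes. Part of such a share arises by chance even without any group difference. That part was not estimated, so the 16.8% is not a measure of an effect of feeding. Among the collagens the share was highest for col18a1b, at 70.99%, which rests on the same fish as its call and adds no separate evidence.

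**Figure D4:**
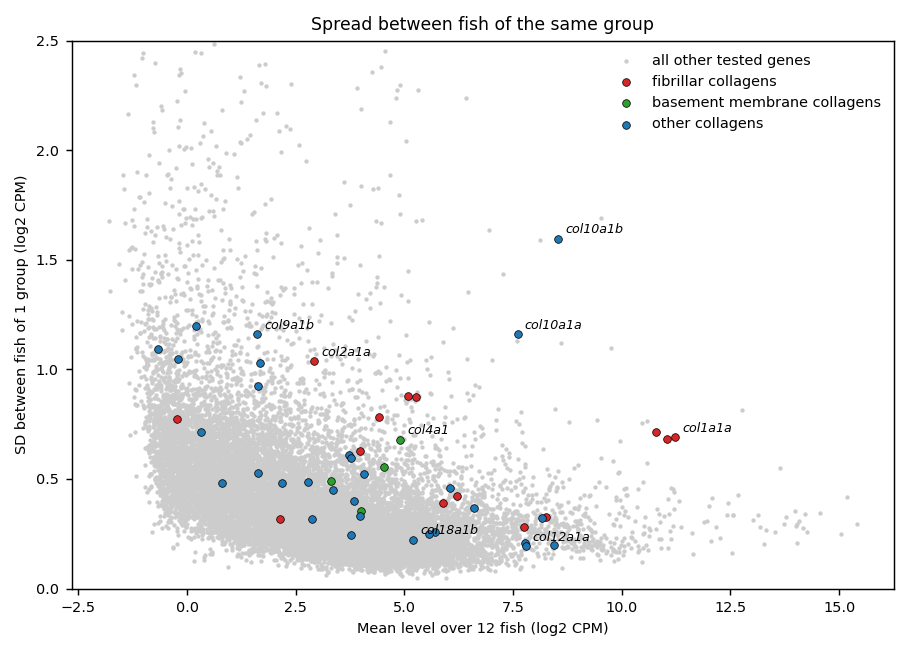
Spread between fish of the same group (SD of log2 CPM, y axis) against mean level (log2 CPM, x axis) for all tested genes (grey) and for collagens by class (colours). Genes with a spread above 2.5 are outside the axis. The type X genes and the 3 type I chains lie above most genes of similar level, while col12a1a, at 0.19, lies among them.

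The fish with high type I and type X collagen were the fish with high bone and scale markers. The 14 markers of bone-forming and scale cells, which include sp7, a regulator of bone-forming cells, bglap (osteocalcin) and spp1 (osteopontin), added up to 374, 403, 86.9 and 144 TPM in the Fast fish, 284, 376, 209.8 and 234 in the Refed_3h fish and 389.8, 455, 132 and 88.6 in the Refed_8h fish. None of the 12 tested markers passed in any of the 3 comparisons. The background called in either direction was 4.9% in Refed_3h against Fast, 1.4% in Refed_8h against Fast and 6.41% in Refed_8h against Refed_3h. Over the 12 fish, log2(TPM + 1) of col10a1b and of the marker sum had a Pearson r of 0.96 (permutation p adjusted over 15 relations 7.5e-05) and a Spearman rho of 0.94 (adjusted permutation p = 0.00075). Without the 2 fish farthest from the median of the marker sum, r was 0.94. For col1a1a the values were r = 0.94 (adjusted permutation p = 7.5e-05) and rho = 0.90 (adjusted permutation p = 0.00157), with r = 0.87 without the 2 farthest fish. The relation was not one between groups: after the group means were taken away, r was 0.98 for col10a1b and 0.96 for col1a1a. Within groups, both genes and the marker sum shared an order by replicate number. In TPM, replicates 1 and 2 were above the other replicates in each of the 3 groups. In CPM this held in Fast and Refed_8h only. Whether the relation holds apart from that order was not tested. The unadjusted p behind 7.5e-05 is 1e-05, the smallest that 100000 permutations can give.

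For col4a1 the relation that passed was with endothelium, and most alternatives ended the call. Its r with the sum of 10 endothelial markers was 0.73 (adjusted permutation p = 0.0333) and its rho 0.73 (adjusted permutation p = 0.0419), with r = 0.76 without the 2 farthest fish and r = 0.85 within groups. The r was 0.58 with CPM in place of TPM (adjusted permutation p = 0.188) and 0.68 without cdh5, the most abundant marker (adjusted permutation p = 0.0709), neither past the threshold. It also missed the threshold in 7 of 12 cases with 1 library left out, namely Fast replicate 3, any Refed_3h replicate, or Refed_8h replicate 1 or 3 (adjusted permutation p 0.0115 to 0.103 over the 12). The marker sum ran between 51.8 and 68.6 TPM in the Fast fish, 43.3 and 55.5 in the Refed_3h fish and 42.7 and 56.2 in the Refed_8h fish. The other 12 of the 15 relations, of the 3 collagens with markers of bone and scale, cartilage, skin, fibroblasts or endothelium, did not pass the adjustment. The nearest was col1a1a with endothelium (r = -0.66, adjusted permutation p = 0.0699). The 3 collagens and 5 lists were chosen after their values were seen, TPM of 1 fish share a total, and how much of each cell type a piece of tissue held was not tested.

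**Figure D5:**
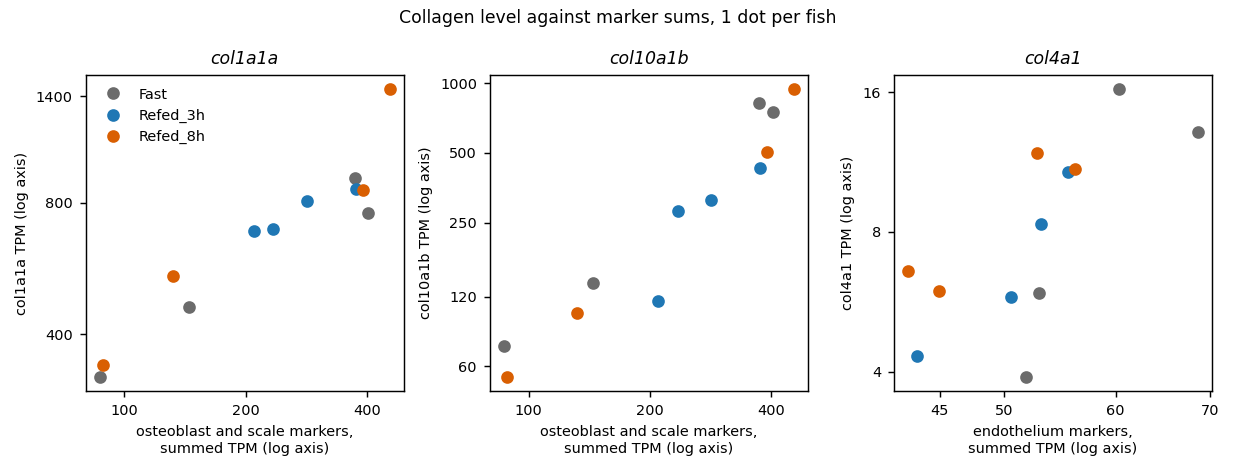
Level of col1a1a and col10a1b against the summed level of bone and scale markers, and of col4a1 against the summed level of endothelial markers, in TPM on log axes. Each dot is 1 fish, coloured by group. The fish of the 3 groups lie along the same diagonal for col1a1a and col10a1b (r = 0.94 and 0.96), with a looser spread for col4a1 (r = 0.73).

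Genes that make, export, cut and bind collagen were counted in 7 lists, each with 0 to 2 called genes per comparison and direction. New chains are hydroxylated and folded in the endoplasmic reticulum with the help of HSP47, a chaperone of the collagen triple helix. In zebrafish serpinh1b encodes HSP47, and the related serpinh1a was on the list of folding genes too. Of the 21 folding genes tested, serpinh1b rose in Refed_3h against Fast (background 2.28% of all genes higher) and fell in Refed_8h against Refed_3h (background 3.36% lower), and no other passed. The level of serpinh1b was 21.2, 13.9, 11.4 and 15.6 TPM in the Fast fish, 41.7, 46.5, 23.9 and 23.5 in the Refed_3h fish and 10.2, 11.98, 7.48 and 5.22 in the Refed_8h fish. In TPM every Refed_3h fish was above every fish of the other groups (no background was counted on that scale). For serpinh1b the log2 fold change was 1.48 ± 0.29 (SE, adjusted p = 0.0154) in Refed_3h against Fast, -0.69 ± 0.29 (SE, adjusted p = 0.318) in Refed_8h against Fast and -2.16 ± 0.30 (SE, adjusted p = 0.00129) in Refed_8h against Refed_3h. The most abundant folding gene was ppib, a prolyl isomerase, at 238.8 TPM on average, with a log2 fold change of -0.08 ± 0.20 (SE) in Refed_3h against Fast.

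Of 14 genes of procollagen export, only sec31a, a coat protein of the vesicles that carry procollagen out of the endoplasmic reticulum, passed, lower in Refed_8h against Refed_3h (log2 fold change -0.62 ± 0.15 (SE), adjusted p = 0.0263, background 3.36% lower). Its list was led in level by sar1ab, at 69.1 TPM. Of 15 genes of procollagen cleavage and crosslinking, only pcolce2b, an enhancer of the protease that trims procollagen ends, passed, lower in Refed_8h against Fast (background 0.854% lower). The level of pcolce2b was 8.36, 9.22, 10.4 and 7.16 TPM in the Fast fish, 5.002, 3.21, 4.68 and 2.85 in the Refed_3h fish and 2.53, 3.34, 2.95 and 1.59 in the Refed_8h fish. In TPM all 8 refed fish were below all 4 Fast fish (no background was counted on that scale). For pcolce2b the log2 fold change was -1.63 ± 0.28 (SE, adjusted p = 0.00908) in Refed_8h against Fast. The most abundant gene of the list was loxa, a lysyl oxidase that crosslinks collagen, at 26.4 TPM.

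Of 17 genes of collagen breakdown, mmp14b rose in Refed_8h against Fast (background 0.543% higher) and against Refed_3h (background 3.06% higher). It encodes a membrane-bound protease that cuts fibrillar collagen and activates the product of mmp2, the most abundant gene of the list at 168.8 TPM. The level of mmp14b was 29.8, 22.8, 24.6 and 25.4 TPM in the Fast fish, 21.3, 19.9, 24.1 and 18.4 in the Refed_3h fish and 39.98, 37.1, 36.04 and 39.002 in the Refed_8h fish. In TPM all 4 Refed_8h fish were above the other 8 (no background was counted on that scale). For mmp14b the log2 fold change was 0.68 ± 0.12 (SE, adjusted p = 0.00908) in Refed_8h against Fast and 0.62 ± 0.12 (SE, adjusted p = 0.00874) in Refed_8h against Refed_3h. Of 8 leukocyte markers, 3 (coro1a, lcp1 and mpx) were called higher in Refed_8h against Refed_3h (background 3.06% higher), with a median log2 fold change of 0.68 over the 8. None was called in Refed_8h against Fast (median 0.37, background 1.4% called in either direction). Their summed level was 2803 to 3432 TPM in the Fast fish, 2022 to 2867 in the Refed_3h fish and 2743 to 4908 in the Refed_8h fish, and no marker was at 0 in all fish. The sum did not pass the exact permutation test in Refed_8h against Refed_3h (p = 0.0857, adjusted p = 0.386) or against Fast (p = 0.314, adjusted p = 0.595). As for skin, that test could hardly pass with 4 fish per group. The part of leukocytes in the change of mmp14b was not tested. Of 13 collagen receptor genes, itgb1b.1, an integrin beta chain, fell in Refed_3h against Fast (log2 fold change -1.44 ± 0.34 (SE), adjusted p = 0.0299, background 2.63% lower), and itgb1a was the most abundant of them.

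Of 58 other matrix genes, ognb (log2 fold change 0.65 ± 0.17 (SE), adjusted p = 0.0423), a small proteoglycan, and tgfbi (0.76 ± 0.17 (SE), adjusted p = 0.0258), a collagen-binding adhesion protein, rose in Refed_3h against Fast (background 2.28% higher). The basement membrane gene nid2a fell in Refed_8h against Refed_3h (-0.83 ± 0.21 (SE), adjusted p = 0.0368, background 3.36% lower), and sparc, a collagen-binding protein of bone, was the most abundant at 562 TPM. Of 29 regulators of matrix genes, smad3a, a transducer of TGF-beta signals, fell in Refed_3h against Fast (-0.64 ± 0.14 (SE), adjusted p = 0.0243, background 2.63% lower). Another regulator, ccn2a, a matrix-associated growth factor, rose in Refed_8h against Refed_3h (0.72 ± 0.19 (SE), adjusted p = 0.0387, background 3.06% higher), and yap1 was the most abundant at 27.4 TPM.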

How the data were processed

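Poly(A) RNA of 12 fish (3 groups of 4) was sequenced by the authors as paired-end reads of 36 bases and mapped to GRCz11 with CLC Genomics Workbench. No source used here gives the annotation release, the strandedness or the handling of multi-mapped reads. Per gene and fish, the authors deposited counts (whole numbers, not normalized) and TPM (relative to exon length and library total). Their RPKM and scaled CPM (24 columns) and the columns of their own 3 comparisons (fold changes, p-values, FDR) were not used. Members were matched by symbol in the deposited table.

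Counts were analysed with edgeR 4.0.16 in R 4.3.3: filterByExpr (16745 of 25281 genes kept), TMM scaling (factors 0.790 to 1.21), 1 model of the 3 groups, robust glmQLFit and glmQLFTest, Benjamini-Hochberg over all tested genes, called at an adjusted p under 0.05. Standard errors are the log2 fold change over the square root of F. The test was tested on simulated data. Of the 54 members, 6 did not pass the filter. Relations with marker sums used 100000 permutations, two-sided. Chi-square per gene between libraries was 31.1 to 99.8 over 66 pairs, so none repeated another.

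The members and gene lists were chosen with earlier results of these data known. Per-fish values were given for called members, the 4 most abundant fibrillar, the 3 most abundant type IV and the 3 most abundant other genes, and the type I chains. For each class the highest and lowest fold changes were named, and for each process list the called genes and the most abundant one. Other members, among them col18a1a, col15a1b, col8a1b, col17a1b, col6a2, col11a1b and col12a1a, were named after their values were seen. The alternatives were RLE size factors, DESeq2 1.42.0, all genes without the filter, only the 2 groups compared, a replicate block, limma 3.58.1 on log2(TPM + 1) or log2(TPM + 0.1) with a mean of at least 0.5 TPM or no filter, a skin marker score as covariate, a 2-fold threshold and each library left out.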

Additional observations from a re-analysis of the deposited data

Results flagged for a closer look

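In 42 groups of 4 fish, 11 genes and 3 class sums among them, the gap between the highest or lowest fish and the next was compared with Dixon's critical value for 4 samples at 95%. Chance flags about 1 in 20 groups (5%), or 2.1 of 42, and 2 were found. The level of col5a2a in Fast replicate 1 was 120.2 TPM, against 69.3, 62.3 and 64.2 TPM in the other Fast fish (gap over range 0.880). The level of col6a1 in Refed_3h replicate 2 was 60.9 TPM, against 82.3, 83.3 and 79.9 TPM in the other Refed_3h fish (gap over range 0.852). Both depend on the TPM scale: in CPM the gap over range was 0.626 for col5a2a and 0.603 for col6a1, below the critical value.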

How the results depend on the processing

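The count of collagens higher in Refed_3h against Fast (1, col18a1b) was 0 with limma on log2(TPM + 1), on log2(TPM + 0.1) and on log2(TPM + 1) without a filter, and 0 at a 2-fold threshold, and with single libraries left out it was 0 to 1 (0 without Refed_3h replicate 1 or 3). Over 21 alternatives the log2 fold change of col18a1b in that comparison was 0.37 to 0.91 and its adjusted p 0.000433 to 0.247. The count of collagens lower in Refed_3h against Fast (0) was 1 with the replicate number as a block (col12a1b, log2 fold change -0.94, adjusted p = 0.0472). No source used here says what a replicate number marks, and the numbers were not taken to pair the fish, since not every same-numbered pair correlated over 0.1 (range -0.19 to 0.27, 7 of 12 pairs over 0.1). Of the pairs with different numbers, 7 of 36 were over 0.1 (range -0.28 to 0.19). As a hint from the data, all 3 pairs of number 2 and all 3 of number 3 were over 0.1, and 8 of 12 libraries correlated best with their own number. A factor shared by fish of the same number was not tested. Replicates 1 and 2 were above 3 and 4 in each group for 5 of 48 collagens in TPM (2.39% of all genes) and for 1 of 48 in CPM (2.42%). In Refed_8h against Refed_3h, where 0 were called, 1 was called lower with the skin marker score as covariate (col28a1b), and leaving out single libraries gave 0 to 1 lower (1, col18a1b, without Refed_3h replicate 2) and 0 to 1 higher (1, col8a1b, without Refed_3h replicate 4). The cause was not tested. Of 693 alternative values for the 11 genes given by fish, 687 kept their side of the threshold, 5 lost the call and 1 gained it. Only col18a1b in Refed_3h against Fast was called to begin with, so all 5 losses fell among its 21 alternatives. The other results could not lose a call. None reversed a call, and 92 changed sign without a call in either fit. On the log2(TPM + 1) scale the median of all genes moved to -0.26 in Refed_3h against Fast, -0.08 in Refed_8h against Fast and 0.18 in Refed_8h against Refed_3h, and the collagens above 0 were 15, 21 and 35 of 45, in place of 28, 28 and 25 of 48 by counts. The median of the 45 collagens on that scale was -0.19, -0.02 and 0.17 in the same order. Chosen after seeing the data, the r of the bone and scale markers without their most abundant gene, bglap, was 0.82 with col1a1a and 0.95 with col10a1b, and that of endothelium without cdh5 was 0.68 with col4a1. With CPM the 3 values were 0.89, 0.98 and 0.58. Both alternatives ended the call of col4a1 and endothelium. Depth limits the 6 untested members, which had 3 to 63 counts in all 12 libraries.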
